A study of Caenorhabditis elegans with 4 samples.

Results

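The regions described here are the binding sites of NHR-6 on chromosome IV of Caenorhabditis elegans, mapped by chromatin immunoprecipitation and sequencing (ChIP-seq). They are every peak that the authors' combined list places on IV, which came to 386 of the 2707 peaks in that list. The 5 other nuclear chromosomes hold the remaining 2321. All 4 samples came from hermaphrodites of strain OP90, harvested as L4 larvae and grown at 20 °C on HB101 bacteria. These worms carry the mutation unc-119(ed3) on chromosome III and the transgene wgIs90, which supplies unc-119(+) and nhr-6::TY1::EGFP::3xFLAG. The 2 ChIP samples were pulled down with anti-GFP antibodies, and the 2 input samples are total DNA of the same strain, whose values were not analysed here. The genotype lists no change of the native nhr-6 gene, and untagged NHR-6, if present, is not seen by the antibodies. The transgene was introduced by biolistic transformation, and the line was not outcrossed. Its insertion site is not given in the labels, which describe the product in neurons around the pharynx at the L2 stage, with nothing said of L4. Nothing says whether the 2 replicates are separate cultures, and what differs between them may be technical.

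NHR-6 is the only NR4A-type nuclear receptor of the worm. Nuclear receptors are proteins that bind DNA through a pair of zinc fingers and regulate transcription. In C. elegans it is known for its role in building the spermatheca, the chamber of the gonad where eggs are fertilised. Worm autosomes have a gene-dense centre, where recombination is low, and arms richer in repeats, where it is high. Chromosome IV is also known for long stretches that carry most genes of the 21U-RNAs, the piRNAs of the worm, which guide Piwi proteins in the germ line.

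Each replicate has a peak list of its own, with 4127 peaks on IV in replicate 1 and 4574 in replicate 2. The combined peaks on IV were all distinct intervals and covered 1% of its span, against 11.3% and 11.1% for the lists of replicates 1 and 2, whose peaks often overlap each other. A list holds no read counts, so depth is unknown. Peaks are ranked within a list by the authors' score, with ties ordered by peak number, and rank 1 is the highest. Replicate ranks also count mitochondrial peaks, which the combined list lacks. Confidence intervals (95%) cover the counting of peaks only. Peaks are not replicates and IV is a single chromosome, so no test was run and differences from other chromosomes are descriptions.

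The strongest site on IV was IV:654762-655083 (build WS220, as are all coordinates here), near the left end, with rank 7 in the combined list. It held rank 21 in replicate 1 and rank 28 in replicate 2. Next came IV:4749910-4750213, with combined rank 12, rank 34 in replicate 1 and rank 26 in replicate 2. Both replicates thus placed the same pair of sites at the top of the chromosome, in opposite order. The third site, IV:17249734-17249990, lies near the other end, at 98.6% of the span. It had combined rank 34, with rank 57 in replicate 1 and 63 in replicate 2. IV:4445778-4446042 followed with combined rank 64, standing at rank 64 in replicate 1 and 112 in replicate 2. The strongest site of the central part, IV:8432805-8433089, had combined rank 68, with rank 121 in replicate 1 and 78 in replicate 2. Its nearest combined peak was 53.0 kb away, so it stood alone. IV:13240518-13240800 had combined rank 70, with rank 58 in replicate 1 and 101 in replicate 2.

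These 6 sites were the only ones of IV among the first 100 combined peaks. The 15 highest-ranked sites of IV reached down to combined rank 169. Of these, 5 lay in the left arm, 4 in the centre and 6 in the right arm, taking each as 33.3% of the span. All 15 were peaks of both replicates, at ranks 21 to 928 in replicate 1 and 26 to 299 in replicate 2. The replicates differed most at a pair of them. IV:2602055-2602284 stood at rank 903 in replicate 1 and 45 in replicate 2, and IV:10936087-10936285 at rank 928 in replicate 1 and 59 in replicate 2. Their high place in the combined list, 136 and 152, went with replicate 2. Ordering IV by the mean of the replicate ranks gave 13 of the same 15 sites, and by the worse of them 11. The order of replicate 1 alone gave 9 and that of replicate 2 gave 12.

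Sites of high rank also came singly or with a close companion. A nearest combined peak lay over 10 kb away for 7 of the 15 and within that distance for the others. Among all 386 sites of IV, 199 likewise had no combined peak within 10 kb. Whether the 15 differ from the rest in this was not tested. IV:14033620-14033937 (combined rank 124) overlapped another combined peak, IV:14033763-14034272, of combined rank 1592. The same best-ranked replicate peaks, at rank 86 in replicate 1 and 53 in replicate 2, lie under both, so these 2 entries are not separate evidence of binding.

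Chromosome IV had fewer of the first 100 combined peaks than any other nuclear chromosome. IV makes up 17.4% of the nuclear span. It held 6 of the first 100 combined peaks (6%, 95% CI 2.78 to 12.5), 29 of the first 250 (11.6%, 8.20 to 16.2) and 70 of the first 500 (14%, 11.2 to 17.3). The others held 11 (II) to 32 (V) of the first 100. Further down IV was not the lowest by count. II held 26 of the first 250 and 69 of the first 500, and I held 32 and 65. III, V and X held 46 to 59 of the first 250 and 87 to 111 of the first 500. In the replicates taken alone, with mitochondrial peaks left out, IV held 8 of the first 100 and 25 of the first 250 in replicate 1, and 10 of the first 100 and 28 of the first 250 in replicate 2. Its share of the whole nuclear list was 14.3% in the combined list, 15.9% in replicate 1 and 15.5% in replicate 2. The share was thus smallest among the first 100 peaks or fewer in all 3 lists, although the intervals are wide there.

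**Figure D1:**
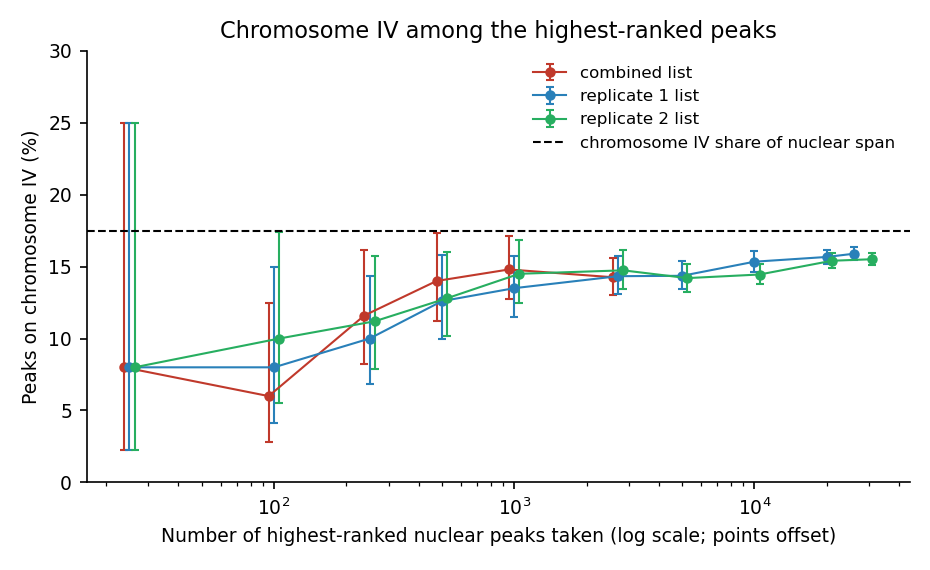
Share of nuclear peaks on chromosome IV (%, y axis) among the highest-ranked peaks of the combined list and of each replicate list (x axis, number of peaks taken, log scale), with 95% Wilson intervals; the dashed line is the share of IV in the nuclear span, 17.4%. All 3 lists start at 8.00% of the first 25 and end between 14.3% and 15.9%.

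Most peaks on IV were listed at the usual width of 510 bp, and the narrower ones were the higher-ranked. There were 65 narrower peaks (16.8%, 95% CI 13.4 to 20.9), against 18.7% on the other chromosomes, and 321 of the usual width; none was wider. The narrower peaks ran from 128 to 322 bp, with a median of 209 bp. All 65 carried the highest score, and their median combined rank was 276, against 1506 for those of the usual width. The same link was seen on the other chromosomes. Among the first 250 ranks 93.1% of the peaks on IV were narrower, against 92.8% elsewhere. At ranks 251 to 500 it was 53.7% on IV, against 57.4%. Every one of the 15 highest-ranked sites of IV was narrower, with a median of 265 bp. In the replicates the peak under these 15 was narrower than usual for 7 sites in replicate 1 and 8 in replicate 2.

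The highest score was shared by 286 peaks on IV (74.1%, 95% CI 69.5 to 78.2), against 72.8% on the other chromosomes, so for most of IV the order rests on peak number. Among these 286 the peak number followed the replicates: its Spearman's rho across peaks was 0.63 with the rank in replicate 1 (n = 283) and 0.77 with that in replicate 2 (n = 286). The ranks in the 2 replicates had a rho of only 0.28 with each other (n = 283). Below the highest score the peak number followed the replicate ranks less closely. The combined peaks there fall into 2 runs of consecutive peak numbers, 1977 to 2237 with 33 peaks of IV and 2238 to 2707 with 67, and within each run the score rises with peak number without exception. For the 100 peaks on IV the peak number had a rho of 0.06 with the rank in replicate 1 (n = 96) and 0.23 with that in replicate 2 (n = 98). Their replicate ranks ran against each other, with a rho of -0.65 (n = 94), and -0.45 on the other chromosomes (n = 619). The combined list was built from these replicates, so the correlations share their source and only describe it.

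Nearly every site on IV was found in both replicates. A peak of replicate 1 overlapped 379 of the 386 (98.2%, 95% CI 96.3 to 99.1), against 99.1% on the other chromosomes, and a peak of replicate 2 overlapped 384 (99.5%, 98.1 to 99.9), against 99.9%. Both replicates overlapped 377 (97.7%), and none was missed by both. On the other chromosomes both overlapped 2298 of 2321. IV had the lowest such share, against 98.3% on V to 99.6% on X. Since the combined list was made from these replicates, this describes how it was made and is no independent check. The median best rank was 1743 in replicate 1 (quartiles 696 and 2715) and 1272 in replicate 2 (quartiles 697 and 2455). On the other chromosomes the medians were 1705 in replicate 1 and 1404 in replicate 2. Centres sat close together: the median distance from a site on IV to its best replicate peak was 21.5 bp in replicate 1 and 15 bp in replicate 2. More than 1 replicate peak overlapped 113 of the sites in replicate 1 (29.3%), against 32.6% on the other chromosomes, and 91 in replicate 2 (23.6%), against 26.8%.

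Support was uneven for some sites. Of the 386, 207 (53.6%) stood within the first 2707 ranks of both replicates, against 53.8% of combined peaks elsewhere. In neither replicate did 13 of the 386 do so, against 98 of 2321 elsewhere. The ranks in the 2 replicates differed 10-fold or more at 16 of 377 sites (4.24%), against 6.4% on the other chromosomes. Of these 16, 9 ranked better in replicate 2 and 7 in replicate 1. Replicate 2 ranked 192 of the 377 sites better than replicate 1 did (50.9%), against 53.5% on the other chromosomes.

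**Figure D2:**
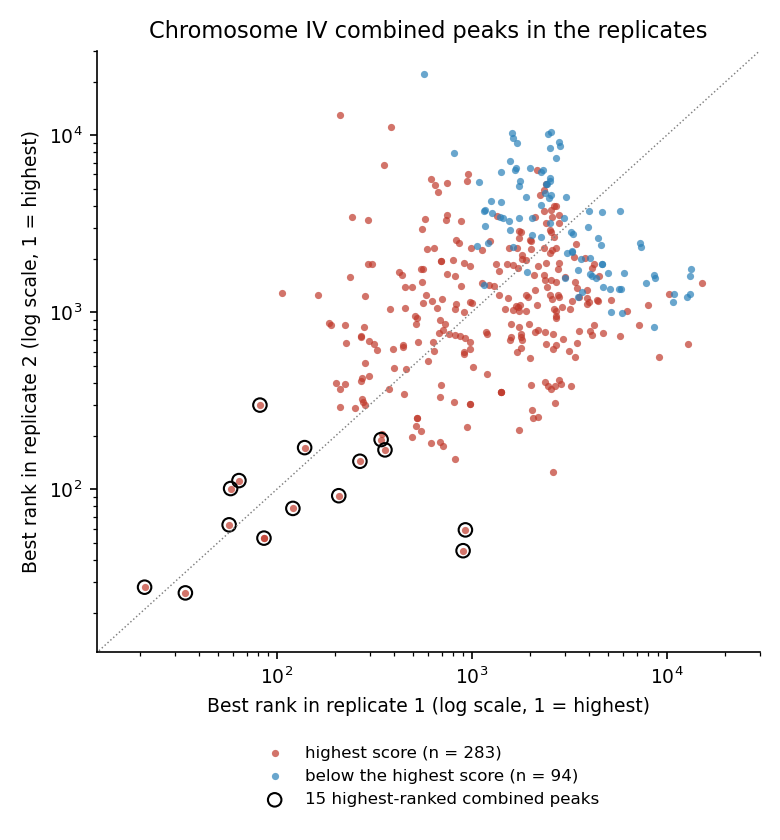
Best rank of each combined peak of chromosome IV in replicate 1 (x axis) and replicate 2 (y axis), both on log scales with 1 as the highest rank, for the 377 peaks found in both; red points have the highest score, blue points a lower one, and circles mark the 15 highest-ranked combined peaks. The circled peaks lie at ranks 21 to 928 and 26 to 299, and the blue points trade rank in 1 replicate against rank in the other.

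The 9 sites missing from 1 replicate were all of the usual width. Replicate 1 lacked 7 of them and replicate 2 lacked 2. Of the 2321 combined peaks elsewhere, replicate 1 lacked 20 and replicate 2 lacked 3. The best-ranked was IV:10066381-10066890 (combined rank 1103), which stood at rank 626 in replicate 2, while the nearest peak of replicate 1 was 1666 bp away. IV:4446897-4447406 (combined rank 1121) stood at rank 495 in replicate 2 and lay 891 bp from a peak of replicate 1. That neighbour belongs to a strong site, since IV:4445778-4446042, described above, lies just to the left. IV:6887649-6888158 had combined rank 1597, with rank 917 in replicate 2. The other 4 that replicate 1 lacked were IV:4643382-4643891, IV:13893024-13893533, IV:9801372-9801881 and IV:2048801-2049310, at ranks 983 to 1385 in replicate 2. For IV:13893024-13893533 a peak of replicate 1 came within 95 bp without touching it. Replicate 2 lacked IV:7561684-7562193, which had rank 2768 in replicate 1, and IV:10003276-10003785, which had rank 770 there. All of these were supported in the replicate that listed them at rank 2768 or better.

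Read the other way, replicate 1's strongest peaks on IV all entered the combined list. Of the 131 peaks on IV with the highest score in replicate 1, 131 were overlapped by a combined peak (100%, 95% CI 97.2 to 100), against 806 of 837 on the other chromosomes (96.3%, 94.8 to 97.4). In replicate 2, whose highest score reaches further down the list, 257 of 290 were (88.6%, 84.5 to 91.8), against 1493 of 1651 (90.4%, 88.9 to 91.8). The share dropped with rank. For replicate 1 it was 71 of 71 at ranks 501 to 1000, against 92.1% on the other chromosomes, and 79 of 146 (54.1%) at ranks 1001 to 2000, against 57.5%. At ranks 2001 to 4000 it was 44.4% on IV, against 44.1%, and at ranks 4001 to 8000 it was 9.78%, against 12.4%. For replicate 2 it was 124 of 156 (79.5%) at ranks 1001 to 2000, against 81.7% on the other chromosomes, 31.0% at ranks 2001 to 4000, against 36.2%, and 8.97% at ranks 4001 to 8000, against 9.80%. Below the first 1000 ranks the shares on IV thus differed from those elsewhere by a few percentage points.

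Combined peaks were sparser on IV than on any other nuclear chromosome. The list held 22.1 peaks per Mb of IV, then 22.9 on V, 27.7 on X, 29.4 on II, 29.4 on I and 33.4 on III, so IV and V were close. The density of IV was 0.787 times that of the other 5 together (95% CI 0.705 to 0.877). The full replicate lists showed a smaller gap, at 0.894 times (0.865 to 0.924) in replicate 1 and 0.869 times (0.842 to 0.897) in replicate 2. For every 100 peaks of replicate 1 on a chromosome there were 9.35 combined peaks on IV and 10.4 to 11.0 on the others. For every 100 of replicate 2 there were 8.44 on IV and 9.0 to 9.70 on the others. In the full replicate lists IV was second from last: it had 236 peaks per Mb in replicate 1, against 215 on V, and 262 in replicate 2, against 247 on V. When combined peaks within 10 kb of each other were counted once, the ratio rose to 0.891, and IV then had 15.8 regions per Mb, against 14.2 on V, the lowest of the 6.

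Along IV, sites were most frequent in the centre and least frequent in the right arm. The centre held 152 sites (39.4%, 95% CI 34.6 to 44.3), against 40.8% on the other chromosomes. The left arm held 133 (34.5%, 29.9 to 39.3), against 27% there, and the right arm 101 (26.2%, 22.0 to 30.8), against 32.2%. In density this was 22.8 per Mb in the left arm, 26.1 in the centre and 17.3 in the right arm. The left arm of IV lay within the range of the other chromosomes, 14.1 to 30.9 per Mb. Its centre was level with that of X (26.1 per Mb) and below those of the autosomes, which reached 38.5, and its right arm was below every other right arm, which held 19.6 to 35.2 per Mb. Of the 70 sites within the first 500 ranks, 21 lay in the left arm, 23 in the centre and 26 in the right arm. These counts are small, and a departure from the pattern of all sites was not tested. The right arm also held the most such peaks on III (34, 38 and 39 from left to right) and X (29, 25 and 33). On I, II and V the centre held the most.

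The replicate lists also thinned out in the right arm of IV. Replicate 1 listed 258 peaks per Mb in the left arm, 246 in the centre and 204 in the right arm, and replicate 2 listed 279, 278 and 228. In these full lists the left arm was at least as dense as the centre. Among the 2707 highest-ranked peaks of each replicate the centre was the fuller, with 42.7% of the peaks on IV in replicate 1, against 30.2% in the left arm, and 39.0% in replicate 2, against 32.7%. For every 100 peaks of replicate 1 there were 10.6 combined peaks in the centre of IV, against 8.84 in its left arm and 8.51 in its right arm. In windows of 5% of the span, IV lay below the median of the other chromosomes in 16 of 20 and above all of them in 0. Its last 3 windows, from 85% of the span on, held 12.6 to 14.9 combined peaks per Mb. The medians of the other chromosomes there were 26.2, 28.2 and 27.1. V was sparser than IV in the windows from 85% and 90%, at 8.61 per Mb in each, and denser in the last, at 18.2.

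**Figure D3:**
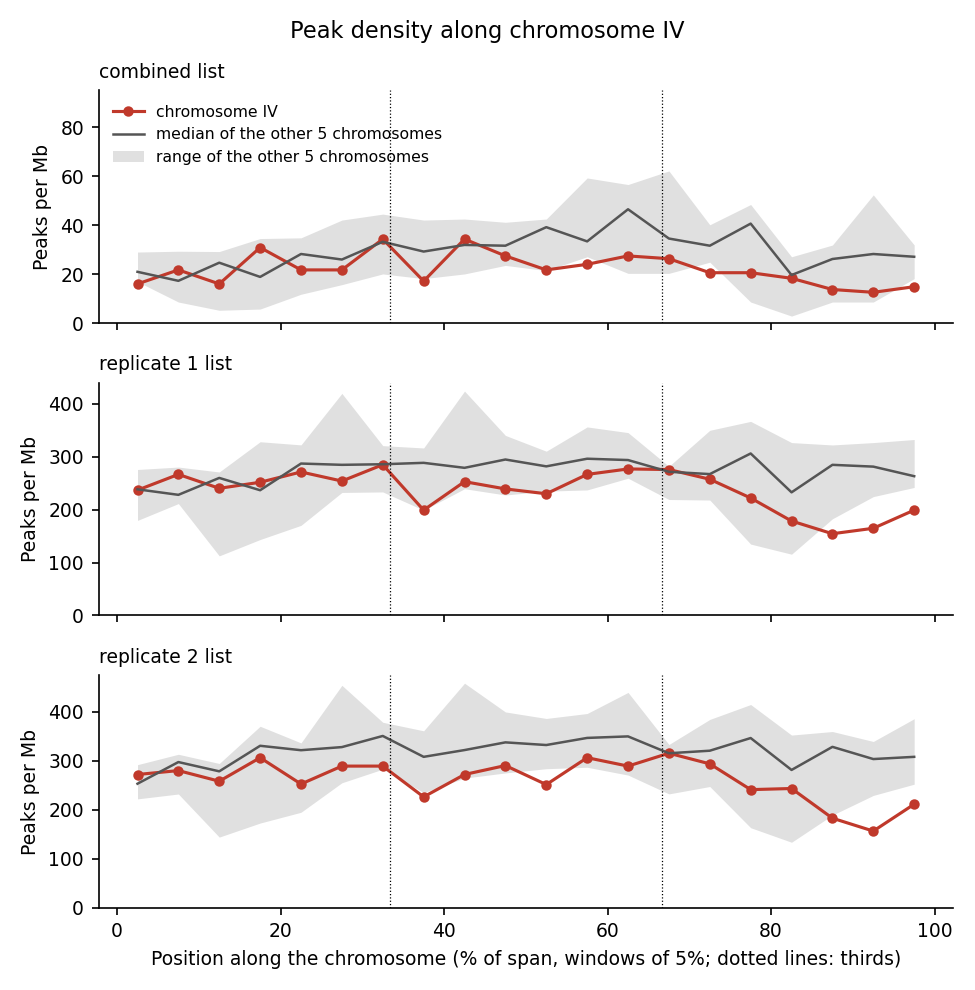
Peaks per Mb (y axes) in 20 windows of 5% of the span (x axis) for the combined list and the lists of replicates 1 and 2; red is chromosome IV, the line the median and the band the range of the other 5 chromosomes, and dotted lines part arms from centre. In all 3 lists IV falls away towards its right end, where the combined density is 12.6 to 14.9 per Mb from 85% of the span on.

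In bins of 500 kb, the 34 full bins of IV held from 4 to 20 combined peaks, with 11 at the median. The bin with the most, 5.5 to 6 Mb, held 20 and was also the fullest in both replicates, with 168 peaks in replicate 1 and 176 in replicate 2. The emptiest, 15 to 15.5 Mb, held 4 and was the emptiest of replicate 1, with 67 peaks. Replicate 2 listed 83 there and had its own lowest, 65, at 16.5 to 17 Mb. From lowest to highest bin the range was 5-fold in the combined list, 2.51-fold in replicate 1 and 2.71-fold in replicate 2. The median bin held 11 combined peaks, but 119 peaks of replicate 1 and 134 of replicate 2. Small counts give wider ratios by counting alone, so these ranges do not compare how evenly the lists are spread. The coefficient of variation of the bins was 0.349 on IV, against 0.233 on X, 0.351 on III, 0.406 on I, 0.490 on II and 0.806 on V. V has nearly the same mean density as IV. This measure too is larger where counts are small. The variance divided by the mean was 1.36 on IV, against 0.754 on X, 2.05 on III, 2.42 on I, 3.51 on II and 7.42 on V.

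Neighbouring sites stood further apart on IV than elsewhere. The median distance from the end of a peak to the start of the next was 29.5 kb (95% CI 23.4 to 33.1), with quartiles of 8.30 and 60.4 kb. On the other chromosomes the medians were 14.9 kb on III, 16.2 kb on II, 17 kb on V, 18.1 kb on I and 22.1 kb on X. How far the wide spacing goes with density was not tested. With as many peaks spread evenly, sites would lie 45.3 kb apart on IV and 43.8 kb apart on V. The median distance divided by this mean spacing was 0.652 on IV, 0.612 on X, 0.532 on I, 0.498 on III, 0.477 on II and 0.388 on V. So V, as sparse as IV, packed its peaks into tighter groups, while those of IV and X were spread more evenly. Of the 385 distances on IV, 5.45% were under 1 kb, against 8.29% on the other chromosomes, 22.9% were 1 to 10 kb, against 28.4%, 61.0% were between 10 and 100 kb, against 55.2%, and 10.6% were 100 kb or more, against 8.12%.

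**Figure D4:**
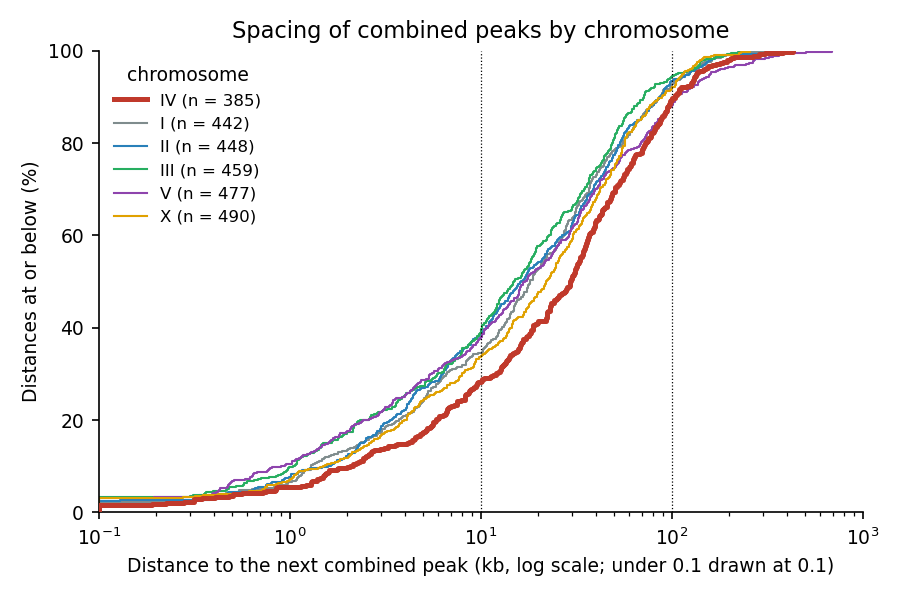
Cumulative share (%, y axis) of the distances between neighbouring combined peaks (kb, log scale, x axis) on each chromosome, IV as the thick line; dotted lines mark 10 and 100 kb. The curve of IV lies to the right of the others over most of the range, with a median of 29.5 kb against 14.9 to 22.1 kb.

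Long stretches without a combined peak took up 39.1% of chromosome IV. There were 42 stretches of at least 100 kb, 6.83 Mb in all, with the ends of the chromosome counted. The same share was 52.8% on V, 33.3% on I, 33.1% on X, 31.1% on II and 28.3% on III, so IV came second. Of the 42, 16 lay in the left arm, 10 in the centre and 16 in the right arm, where they took 53.5% of the arm, against 39.7% of the left arm and 23.9% of the centre. The longest was IV:15039792-15471471, of 432 kb, in which replicate 1 listed 44 peaks, the best at rank 2606, and replicate 2 listed 56, the best at rank 2096. IV:13395634-13777404 came next with 382 kb, where replicate 1 had 66 peaks and replicate 2 had 72. IV:14103436-14413316, of 310 kb, held 28 peaks of replicate 1 and 54 of replicate 2. These 3 lie close together in the right arm, and so does the fourth, IV:15646810-15933012, of 286 kb. The fifth, IV:4810817-5077842, of 267 kb, opens after a site of combined rank 1076. That site lies 60.1 kb beyond IV:4749910-4750213, the site of second-highest rank. Of the 8 stretches of at least 200 kb, 6 were in the right arm.

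None of the 42 stretches was empty in the replicates. They held 8 to 66 peaks each in replicate 1 and 11 to 72 in replicate 2, the best at rank 1070 in replicate 1 and 1472 in replicate 2. Replicate peaks were nevertheless fewer there. Replicate 1 listed 166 per Mb inside the stretches and 281 in the rest of IV, and replicate 2 listed 186 inside and 310 in the rest. The ratios of 0.593 and 0.600 compare with 0.526 to 0.677 in replicate 1 and 0.536 to 0.691 in replicate 2 on the other chromosomes. As combined peaks are themselves replicate peaks, a ratio under 1 follows in part from how the stretches were chosen.

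A smaller share of sites was clustered on IV than on any other chromosome in the whole combined list. A neighbour within 10 kb was present for 187 of the 386 (48.4%, 95% CI 43.5 to 53.4), against 57.0% on the other chromosomes, which ranged from 54.0% on X to 61.1% on III. The interval of IV overlaps those of X, V and I. In the stricter 50% of the ranking the order changed: 30.8% of sites on IV had such a neighbour, against 26.7% on X and 38.0% to 47.6% on the other 4. Clusters of 3 or more peaks held 71 sites on IV (18.4%), against 28.3% on X, 28.9% on I, 34.1% on III, 35.9% on II and 36.6% on V. Linking peaks within 10 kb left 277 separate regions: 199 single sites, 58 pairs, 14 clusters of 3, 4 of 4, 1 of 5 and 1 of 8. Clusters of 3 or more numbered 20 on IV and 35 to 42 on each other chromosome. V, at 22.9 per Mb over its whole span, had 42 such clusters, but its peaks were less evenly spread. In the 5% windows from 55% to 70% of its span V held 59.3, 55.5 and 62.2 per Mb. The fullest windows of IV held 34.3. How much of the shortfall on IV follows from its density was not tested.

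**Figure D5:**
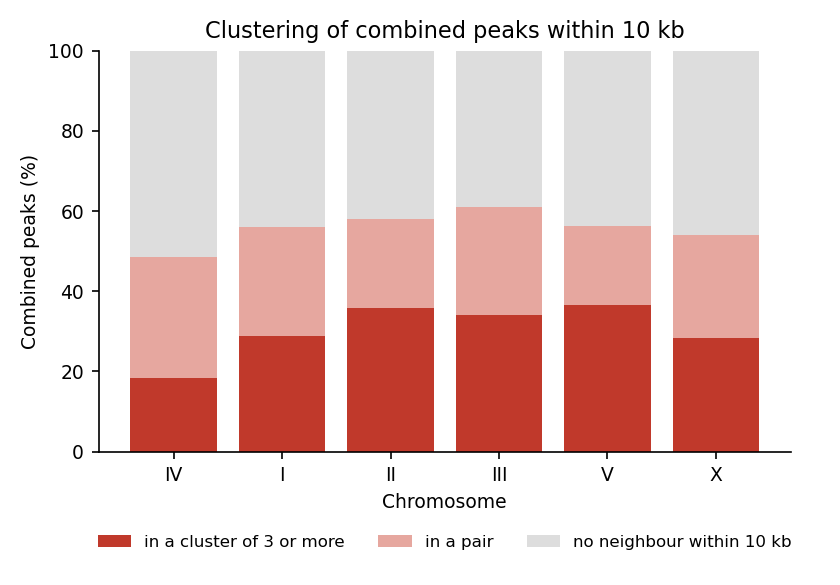
Share of combined peaks (%, y axis) on each chromosome (x axis) that lie in a cluster of 3 or more linked within 10 kb (dark), in a pair (pale) or alone (grey). The dark part is 18.4% on IV and 28.3% to 36.6% on the others.

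The largest cluster of IV held 8 peaks in 25.6 kb, at IV:5582153-5607791, within the fullest bin. Its best peak, IV:5607282-5607791, had combined rank 488, with rank 2466 in replicate 1 and 381 in replicate 2. The other 7 had combined ranks from 992 to 2506, and all 8 were of the usual width. This cluster thus held many peaks but none of the highest-ranked sites. The highest score was carried by 6 of its 8 peaks, close to the share of 74.1% over all of IV. The replicates listed 30 peaks (replicate 1) and 20 peaks (replicate 2) in the same interval. The next cluster, IV:7039537-7053559, had 5 peaks in 14 kb. Its best, IV:7039537-7039734, was a narrow peak of 198 bp with combined rank 394, which ranked 163 in replicate 1 and 1255 in replicate 2. Of the 4 clusters of 4 peaks, IV:10932952-10937301 was the tightest, at 4.35 kb, and includes IV:10936087-10936285, one of the 15 highest-ranked sites. IV:16482677-16492699 held 4 peaks in 10.0 kb, in the sparse right arm. Its best peak, at combined rank 219, ranked 201 in replicate 1 and 398 in replicate 2, while another ranked 211 in replicate 1 but 12984 in replicate 2. In IV:6083564-6097893, also of 4 peaks, the last pair overlaps and rests on the same replicate peaks, at rank 983 in replicate 1 and 302 in replicate 2.

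Clustered and single sites on IV were of like strength by score. The highest score was carried by 140 of 187 sites with a neighbour within 10 kb (74.9%, 95% CI 68.2 to 80.5) and by 146 of 199 without one (73.4%, 66.8 to 79). The first 250 ranks held 15 of the clustered sites and 14 of the single ones. The median rank in replicate 1 was 1590 for clustered sites and 1957 for single ones, and in replicate 2 it was 1207 for clustered sites and 1356 for single ones.

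The stretches of IV rich in 21U-RNA genes were taken, from general knowledge and in whole Mb, as 5 to 7 Mb and 14 to 17 Mb. No annotation of the build was used, so these bounds are approximate. Together they held 93 sites, or 18.6 per Mb, against 23.5 per Mb on the rest of IV, a ratio of 0.793 (95% CI 0.621 to 1.0). The 2 stretches differed. The first held 24.5 sites per Mb, 1.04 times the rest of IV (0.755 to 1.42), and the second 14.7 per Mb, 0.625 times (0.445 to 0.860). In the replicate lists the ratios for 14 to 17 Mb were 0.644 (0.584 to 0.708) in replicate 1 and 0.675 (0.617 to 0.738) in replicate 2, and those for 5 to 7 Mb were 0.956 and 0.901. The second stretch makes up much of the right arm, so its sparseness and that of the arm are not separate observations. Further left in the arm, the 5% windows from 70% and 75% of the span each held 20.6 combined peaks per Mb, against 26.1 in the centre. Replicate 1 listed 257 and 222 per Mb in these windows, against 246 in the centre. Replicate 2 listed 294 and 241, against 278. At 14 to 17 Mb chromosome V held 32.3 combined peaks per Mb and X held 29.7. From 14 Mb to their ends, I held 16.1 per Mb and II 39.9. The same Mb fall at another share of the span on each chromosome. In the 5% windows from 80% to 95% of the span, IV held 18.3, 13.7 and 12.6 per Mb. V held 2.87, 8.61 and 8.61 there, and the medians of the other 5 chromosomes were 19.6, 26.2 and 28.2. Of the 44 sites at 14 to 17 Mb, 35 carried the highest score (79.5%), against 72.0% on the rest of IV, and at the same Mb it was 79.4% on V and 83.1% on X. The first 250 ranks held 7 of the 44, against 20 of 293 on the rest of IV. At the same Mb they held 17 of 97 on V, 14 of 89 on X, 1 of 17 on I and 2 of 51 on II. Among the 7 on IV were IV:14033620-14033937, IV:14464087-14464359, IV:14594365-14594614 and IV:16024278-16024417.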

How the data were processed

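The data were 3 peak lists, a list for each of the 2 ChIP replicates and a combined list; the 2 input samples have no list here. Per the file headers the build is WS220, and the source column names SPP (a peak caller) and IDR (irreproducible discovery rate, a check of peaks between replicates). For the aligner, the peak threshold and the way of combining replicates: not given in the sources used here. The authors deposited a score for every peak, of unstated scale, and numbered the peaks.

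Scores served for ranking within a list (ties by peak number). A chromosome was taken to span 1 to the largest end of any peak on it in the lists. Overlap meant at least 1 bp in common, and peaks were linked into clusters when the end of one and the start of the next lay within 10 kb. Peaks were placed in arms, centre and bins by their centres. Intervals are 95% Wilson for shares, exact conditional binomial for ratios of densities and binomial order statistics for medians. No test was made. The functions were tested on simulated data. Sequences and genes at peaks were not analysed here, as no genome or annotation of build WS220 was used. Named regions followed a rule: the 15 highest-ranked peaks, the 5 largest clusters, the 5 longest stretches, each peak missing from a replicate, and the fullest and emptiest bins; other regions named, in the overlap, bin and 21U-RNA accounts, were chosen after their values were seen. The members, lists and settings were chosen with earlier results of these data known. Calculations were done in Python 3.11.15 with pandas 2.3.3, numpy 2.4.6 and scipy 1.17.1, figures with matplotlib 3.10.9.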

Additional observations from a re-analysis of the deposited data

How the results depend on the processing

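Of 39 values of chromosome IV under another setting, 19 stayed within the error of the value given above and 20 moved. None was tested. For the share of span in long stretches, the error used was the standard deviation of the 2 single-replicate values. That is not an interval of the share itself, and all its other settings counted as moved. Counting peaks within 10 kb once moved the density ratio to 0.891. The stricter 50% of the ranking, set by peak number, moved the median spacing to 57.4 kb (39.1 kb elsewhere), the share of span in long stretches to 70.8% (64.6%), the clustered share to 30.8% (39.0%), the median replicate ranks to 814 and 733 and support in replicate 2 to 100%; fewer peaks alone widen gaps. Using the 2707 highest-ranked peaks of a single replicate gave long stretches of 43.5% to 44.1% and a clustered share of 54.2% to 54.7% (59.0% to 59.3% elsewhere). It also gave density ratios of 0.789 to 0.817, median spacings of 25.6 to 28.9 kb, central shares of 39.0% to 42.7% and 21U-RNA ratios of 0.710 to 0.802. By construction, linking within 5 kb gave 30.6% clustered and within 20 kb 66.6%, stretches of at least 200 kb took 13.1% and the central 50% held 57.8%. Overlap of 50% of both peaks lowered support to 83.9% and 87.8% and moved the median rank in replicate 1 to 2012; centres within 100 bp lowered support in replicate 1 to 92.2%. The 21U-RNA ratio was 1.04 for 5 to 7 Mb alone. No paired analysis was possible because the peak lists belong to the ChIP samples, so inputs enter no comparison here. Depth is unknown and limits all counts.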

Other observations

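Some strong replicate peaks on IV had no combined peak over them. In replicate 2 the best was IV:14033079-14033273 at rank 303, which no peak of replicate 1 overlapped; it lies just left of IV:14033620-14033937, the combined site of rank 124. In replicate 1 the best was IV:4397035-4397564 at rank 1017, overlapped by a replicate 2 peak of rank 5346. The left end of IV had no combined peak before 175603, although replicate 1 listed 35 peaks and replicate 2 listed 34 in those 176 kb.

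In the single replicate lists, cut to 2707 peaks, IV again had the smallest share of peaks in clusters of 3 or more. It was 23.8% in replicate 2, where the other chromosomes held 31.3% to 42.3%, and 24.5% in replicate 1, where they held 31.1% to 41.7%. In the stricter 50% of the combined list it was 6.15% on IV and 10.5% to 23.6% elsewhere. The median spacing on IV was the widest of the 6 chromosomes in each of these lists too.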
